A study of Mus musculus with 6 samples.

Results

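The proteasome genes described here are 46 of the 30702 genes that the array names in the livers of 6 male mice. They were chosen by name. A gene was taken where its platform symbol starts with Psma, Psmb, Psmc, Psmd, Psme, Psmf or Psmg followed by a digit, and each was measured by a single probe set, the set of probes that reports 1 transcript. By textbook role 16 of the genes encode the 20S core, 20 encode caps that bind its ends, 7 are assembly factors and 3 are neither. Those 3 are Psmf1, which encodes the proteasome inhibitor PI31, and Psmc3ip and Psme3ip1, which match the name rule but encode no subunit. Of 54 probe sets with such a symbol, 2 for the interferon-induced subunits Psmb8 and Psmb9 and 2 for pseudogenes were left out by the rule. A further 4 list several genes and were not assigned to one, and Psmb5 and Psme2 are among the genes on them.

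All 6 mice were males aged 8 weeks, and liver RNA of each was hybridised to 1 Affymetrix array. For 3 of them, titled HFD-inulin, the mother had been given inulin, a fermentable plant fibre. For the other 3, titled HFD, the mother had a high-fat diet. Because the first title also names HFD, whether inulin was added to that diet or replaced it is not settled by the labels. The sources used here do not give the strain, the dose and timing of inulin, the diet of the offspring, or whether mice shared a mother or litter. P-values therefore measure only the spread among these livers, which may in part be technical or shared. The design asks which liver transcripts differ between the groups, and 3 arrays per group limit the precision of every value.

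The 26S proteasome degrades proteins tagged with ubiquitin. Its 20S core is a barrel of stacked rings, with alpha subunits forming the gated outer rings and beta subunits, of which PSMB5, PSMB6 and PSMB7 are catalytic, forming the inner rings. The 19S cap holds a ring of ATPases that unfold the substrate and a lid that removes ubiquitin, while PA28 and PA200 are alternative caps that work without ATP. In many cell types NRF1, the product of Nfe2l1, raises transcription of most subunit genes together when proteasome activity falls short. In liver, as in other tissues, the proteasome removes misfolded and short-lived proteins and makes antigenic peptides.

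Values are log2 signals as deposited, and the median probe set lay between 1.17 and 1.26 in every array. The largest principal component, with 53.1% of the variance, set HFD-inulin 1 and 2 and HFD 1 against HFD-inulin 3 and HFD 2 and 3. The first 3 are called low-signal arrays below, after their mean of 1.34 to 1.91 in repeated chromosome Y probe sets, and the others high-signal arrays (2.99 to 3.24). This split crosses the groups and its cause was not tested. The 6 measured hepatocyte markers had mean levels of 7.13 to 11.5, whereas the neutrophil markers S100a8 and Ngp and the B cell marker Ms4a1 lay below the median probe set.

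The constitutive subunits of the core and of the 19S cap read higher together in livers 1 and 2 of the HFD-inulin group and lay near the HFD level in liver 3. These are 30 genes, 13 of the rings (Psma1 to Psma7 and 6 Psmb genes) and 17 of the 19S cap (Psmc1 to Psmc6 and 11 Psmd genes), joined into 1 set after the values were seen. Both of HFD-inulin livers 1 and 2 exceeded all 3 HFD livers in 35 of the 46 members (76.1%), made up of all 30 of these genes and 5 of the other 16 (31.2%). This was so in 15.7% of all named genes and in 36.8% of the 6141 named genes with a mean of at least 4, which all of the 30 but Psmd14 reach. Livers 1 and 2 were also taken as a pair after the values were seen. The counts over them therefore describe the pattern and are no test of it. HFD-inulin liver 3 exceeded all HFD livers in 18 of the 46 members (39.1%), 14 of them among the 30, against 23.9% and 26.1% of those backgrounds. Averaged over the 30 genes, the signal relative to the mean of the HFD livers was 0.60, 0.55 and 0.04 in the HFD-inulin livers, in order. In each HFD liver it was within 0.03 of zero. Their median difference between groups was 0.41, a ratio of 1.33, against -0.01 over all named genes and 0.08 over genes with a mean of at least 4.

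No gene passed the test of the group difference. With limma and Benjamini-Hochberg adjustment over all 65956 probe sets, 0 members had an adjusted p under 0.05 (0.0% of all probe sets did), and the smallest adjusted p among them was 0.902. Ordinary least squares also gave 0. The mean was higher in HFD-inulin in 42 of the 46 members, where it was higher in 43.5% of all probe sets, 46.9% of named genes and 64.4% of genes with a mean of at least 4. At an unadjusted p under 0.05 in limma 23 members were higher, where 2.52%, 3.42% and 11.1% of those backgrounds were. By the same threshold 0 members were lower, against 2.64%, 2.22% and 3.58%, so that in either direction 23 members stand beside 5.15%, 5.65% and 14.6%. The groups did not overlap, with HFD-inulin higher, in 16 members, against 4.32%, 5.41% and 11.9%. They lay apart the other way in 1, against 6.02%, 6.05% and 5.02%. These shares describe the members beside the rest of the array and are no test of the list, since the same 6 livers lie behind every gene.

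The number of members with an unadjusted p under 0.05 in limma changed with each liver left out. The 23 became 5 when HFD-inulin liver 1 was left out and 6 when HFD-inulin liver 2 was. Leaving out HFD liver 1, 2 or 3 gave 13, 8 and 7. Leaving out HFD-inulin liver 3 gave 34, with a smallest adjusted p of 0.0673. Over all probe sets the full fit gave 3399, and leaving out HFD-inulin liver 1, 2 or 3 gave 2628, 2585 and 6525. Without HFD liver 1, 2 or 3 that count was 4038, 2100 and 2218. There the members' median difference was 0.37, 0.37 and 0.36, against 0.36 in the full fit. Each of these fits also rests on fewer livers. In bulk liver RNA a change in the mix of cells and a change in RNA per cell cannot be told apart.

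**Figure D1:**
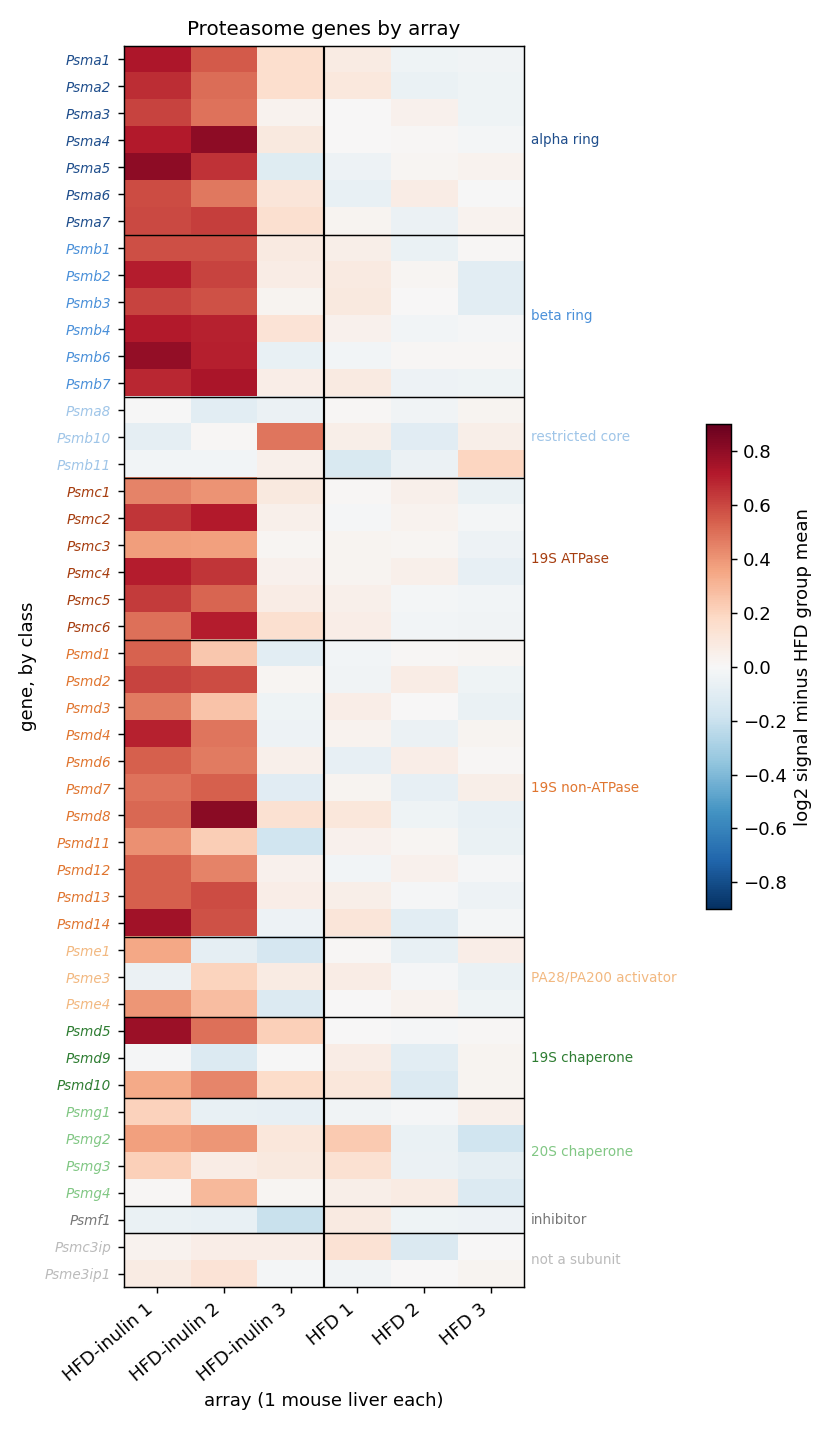
Heat map of log2 signal relative to the mean of the 3 HFD arrays for the 46 proteasome genes (rows, by class) in each of the 6 arrays (columns); red is above the HFD mean and blue below. The ring and 19S groups average 0.47 to 0.68 in HFD-inulin 1 and 2 and are pale in HFD-inulin 3 and in the HFD arrays, while Psmb10 reads highest in HFD-inulin 3 (0.48).

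Alpha ring genes, whose products gate entry to the core, had higher means in HFD-inulin in 7 of 7. Their differences ran from 0.38 for Psma3 to 0.54 for Psma4, and 6 of the 7 had an unadjusted p under 0.05 in limma. At that threshold 11.1% of named genes with a mean of at least 4 were higher. With ordinary least squares 1 of the 30 constitutive genes reached it, where 3036 of all 65956 probe sets did in either direction. Psma7 measured 5.88, 5.90 and 5.43 in the HFD-inulin livers, in order, and 5.31, 5.23 and 5.31 in the HFD livers. All HFD-inulin values thus lay above the HFD values, and that of liver 3 was the nearest to them. The means were 5.74 ± 0.27 and 5.28 ± 0.05 (SD, n = 3 each), and the difference was 0.45 (SE 0.13, limma adjusted p = 0.902). Psma1 measured 5.07, 4.89 and 4.49 against 4.41, 4.30 and 4.31, a difference of 0.48 (SE 0.15). Psma2 measured 6.04, 5.87 and 5.52 against 5.47, 5.31 and 5.33, a difference of 0.44 (SE 0.14). In both genes the groups did not overlap, and liver 3 was again the nearest to HFD. The groups lay apart with HFD-inulin higher in 5 of the 7, against 11.9% of named genes with a mean of at least 4. Psma5 was the exception among the 7 at an unadjusted p under 0.05. It read 0.80 and 0.65 over the HFD level in HFD-inulin livers 1 and 2 and -0.11 in liver 3.

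Beta ring genes had higher means in 6 of the 6 that could be assigned, from 0.40 for Psmb3 to 0.51 for Psmb4. In limma 5 had an unadjusted p under 0.05, where 11.1% of named genes with a mean of at least 4 were higher. Psmb4, a structural subunit, measured 5.98, 5.96 and 5.39 in HFD-inulin and 5.31, 5.24 and 5.26 in HFD, a difference of 0.51 (SE 0.16, limma adjusted p = 0.902). Psmb1, another structural subunit, measured 7.31, 7.31 and 6.81 against 6.78, 6.67 and 6.74, a difference of 0.41 (SE 0.14). In these 2 genes all HFD-inulin values were above all HFD values, whereas in the other beta ring genes the groups overlapped. The groups lay apart with HFD-inulin higher in 11.9% of named genes with a mean of at least 4.

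The catalytic genes were high in the same livers. Psmb6, the caspase-like subunit, measured 6.34, 6.25 and 5.48 in HFD-inulin and 5.52, 5.56 and 5.56 in HFD. HFD-inulin liver 3 was here the lowest of the 6, so the groups overlapped, and the difference was 0.48 (SE 0.22, limma adjusted p = 0.902). Psmb7, the trypsin-like subunit, measured 6.82, 6.88 and 6.20 against 6.22, 6.10 and 6.10, a difference of 0.49 (SE 0.18), and liver 3 lay below HFD liver 1. The chymotrypsin-like subunit gene Psmb5 has no probe set of its own here. The probe set that lists both Psmb5 and Mir686, counted for neither, measured 7.23, 7.18 and 6.22 in HFD-inulin and 6.25, 6.06 and 6.02 in HFD. That is a difference of 0.76 (SE 0.27, limma adjusted p = 0.902). The probe set of the pseudogene Psmb5-ps was also highest in livers 1 and 2, with 4.99, 4.99 and 4.21 against 4.07, 3.96 and 4.05. Whether a gene and its pseudogene share probes was not checked.

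Core genes with restricted use did not show the pattern, but Psma8 and Psmb11 had means of only 1.11 and 1.05. These lay below the median probe set (1.22), where a shift may not be seen. Psmb11, the thymus subunit, measured 1.03, 1.02 and 1.097 in HFD-inulin and 0.91, 0.996 and 1.24 in HFD, near the median probe set. Psma8, a testis alpha subunit, also lay near it, with a difference of -0.05 (SE 0.06), and was grouped here rather than with the alpha ring after its values were seen. Psmb10, an interferon-induced catalytic subunit, measured 4.54, 4.63 and 5.10 against 4.68, 4.52 and 4.68. Its one high value was in HFD-inulin liver 3, where most constitutive genes were near the HFD level, and the difference was 0.14 (SE 0.15, limma adjusted p = 0.933). The other interferon-induced catalytic subunits, which the rule leaves out, were not high there. Psmb8 measured 3.30, 3.42 and 3.56 against 3.52, 3.51 and 3.64 (difference -0.13, SE 0.09). Psmb9 measured 2.49, 2.34 and 2.43 against 2.53, 2.31 and 2.51, and its difference of -0.03 (SE 0.09) was just above zero after quantile normalization or median centring. In both the groups overlapped.

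In the 19S cap the 6 ATPase genes had differences of 0.25 (Psmc3) to 0.47 (Psmc2). In limma 5 of 6 had an unadjusted p under 0.05, where 11.1% of named genes with a mean of at least 4 were higher. With ordinary least squares 0 of the 20 cap genes reached that threshold, where 3036 of all 65956 probe sets did in either direction. Psmc6 measured 6.50, 6.72 and 6.15 in HFD-inulin and 6.07, 5.98 and 5.98 in HFD, a difference of 0.45 (SE 0.14, limma adjusted p = 0.902). Psmc1 measured 6.52, 6.47 and 6.16 against 6.08, 6.12 and 6.01, a difference of 0.31 (SE 0.11). Psmc5 measured 5.81, 5.70 and 5.24 against 5.22, 5.16 and 5.15, a difference of 0.41 (SE 0.15). In each of these 3 ATPases, named for their small p, the groups did not overlap. The groups lay apart with HFD-inulin higher in 4 of the 6, against 11.9% of named genes with a mean of at least 4. For Psmc1 and Psmc5 HFD-inulin liver 3 was barely above the highest HFD liver.

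The 11 non-ATPase genes of the 19S cap ran from 0.15 (Psmd11) to 0.49 (Psmd8). In limma 5 had an unadjusted p under 0.05, where 11.1% of named genes with a mean of at least 4 were higher. Psmd8, a lid subunit, measured 6.35, 6.65 and 5.97 in HFD-inulin and 5.94, 5.80 and 5.77 in HFD, a difference of 0.49 (SE 0.17, limma adjusted p = 0.902). Psmd2, a scaffold of the base, measured 7.20, 7.18 and 6.61 against 6.57, 6.66 and 6.56, a difference of 0.40 (SE 0.16). Psmd14, the lid enzyme that cleaves ubiquitin chains from substrates, measured 4.11, 3.92 and 3.31 against 3.46, 3.26 and 3.34, a difference of 0.43 (SE 0.20). The groups lay apart in Psmd8, whereas in Psmd2 and Psmd14 HFD-inulin liver 3 fell among the HFD livers. Of the 11 genes 3 had groups apart with HFD-inulin higher, against 11.9% of named genes with a mean of at least 4. For Psmd11, a lid subunit, liver 3 was the lowest of all 6, at 5.52 against 5.64 to 5.74 in HFD, while livers 1 and 2 read 6.11 and 5.92.

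Of the 3 genes of alternative caps 0 had an unadjusted p under 0.05 in limma. In either direction 14.6% of named genes with a mean of at least 4 did, and so few genes cannot be set apart from that share. Psme1, a subunit of the interferon-induced PA28 activator, was high in HFD-inulin liver 1 alone, at 5.75 against 5.34 to 5.47 in HFD, and differed by 0.04 (SE 0.14). Psme3, which encodes the nuclear PA28 gamma, differed by 0.07 (SE 0.08). Psme4, which encodes PA200, measured 5.45, 5.33 and 4.93 in HFD-inulin and 5.06, 5.09 and 5.01 in HFD. It was high in the same livers 1 and 2 but lowest of all in liver 3, and the difference was 0.18 (SE 0.13, limma adjusted p = 0.909). The probe set that lists Psme2 with Psme2b differed by 0.24 (SE 0.07) and the one that lists Psme2b first by -0.24 (SE 0.19), so no direction is given for Psme2. Psmf1, the inhibitor gene, measured 3.24, 3.24 and 3.10 against 3.38, 3.26 and 3.25. It was the only member whose groups lay apart with HFD-inulin lower, by a small margin (difference -0.11, SE 0.07, limma adjusted p = 0.906). The groups lay apart that way in 6.05% of all named genes.

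**Figure D2:**
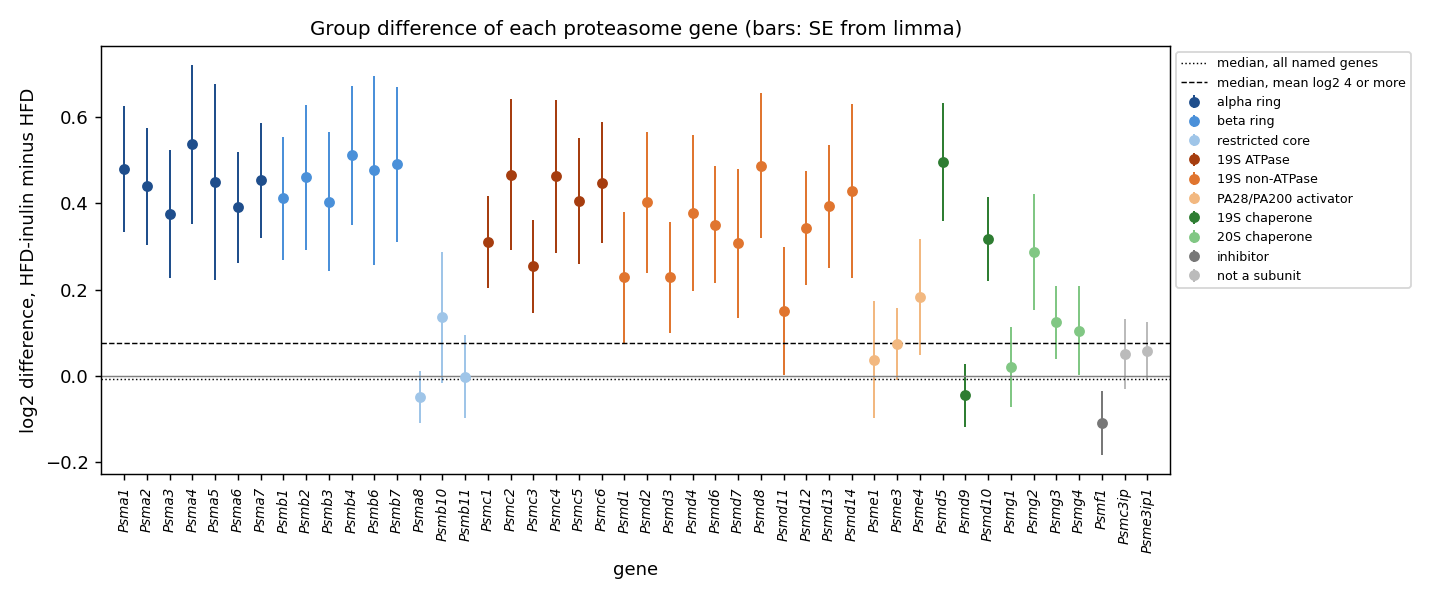
Log2 difference (HFD-inulin minus HFD, 3 arrays each) of each of the 46 genes, with bars of 1 SE from limma; the dotted line is the median of all named genes (-0.01) and the dashed line that of genes with a mean of at least 4 (0.08). The 30 constitutive core and 19S genes lie between 0.15 and 0.54, the PA28 and PA200 genes between 0.04 and 0.18, and Psmd5 at 0.49 is the highest assembly gene.

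Among the assembly genes, 2 of the 3 chaperones of the 19S base had an unadjusted p under 0.05 in limma. At that threshold 3.42% of all named genes and 11.1% of those with a mean of at least 4 were higher. Psmd5, which binds ATPases of the base during assembly, measured 5.31, 5.04 and 4.75 in HFD-inulin and 4.54, 4.52 and 4.55 in HFD. The HFD livers were close together and all HFD-inulin livers were above them, with means of 5.03 ± 0.28 and 4.54 ± 0.01 (SD, n = 3 each). Its difference of 0.49 (SE 0.14, limma adjusted p = 0.902) had the smallest unadjusted p of the 46 members. Psmd10, which encodes the chaperone gankyrin, measured 3.18, 3.29 and 3.01 against 2.94, 2.72 and 2.86, also with no overlap (difference 0.32, SE 0.10). Psmd9, the remaining 19S chaperone, differed by -0.04 (SE 0.07). The groups lay apart with HFD-inulin higher in 5.41% of all named genes and in 11.9% of those with a mean of at least 4.

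Of the 4 chaperones of the core 0 had an unadjusted p under 0.05 in limma. In either direction 5.65% of all named genes and 14.6% of those with a mean of at least 4 did. With so few genes the count does not set these chaperones apart from those shares. Psmg2 measured 4.65, 4.68 and 4.39 in HFD-inulin and 4.53, 4.23 and 4.11 in HFD, a difference of 0.29 (SE 0.13, limma adjusted p = 0.902). HFD liver 1 fell among the HFD-inulin values here, so the groups overlapped. Psmg3, whose signal was low, measured 1.99, 1.83 and 1.86 against 1.90, 1.71 and 1.69 (difference 0.12, SE 0.08). Psmg1 differed by 0.02 (SE 0.09) and Psmg4 by 0.11 (SE 0.10). The maturation factor Pomp, which works with these chaperones but falls outside the name rule, measured 6.68, 6.72 and 6.06 against 6.18, 6.003 and 6.07 (difference 0.40, SE 0.18). Its livers 1 and 2 were high and liver 3 lay among the HFD livers.

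By class, the median difference was 0.44 over the 16 core genes, 0.35 over the 20 cap genes and 0.12 over the 7 assembly genes. Relative to HFD the core averaged 0.54, 0.49 and 0.08 in the HFD-inulin livers, in order, and the cap 0.50, 0.45 and -0.00. The assembly genes averaged 0.27, 0.22 and 0.07, against 0.08 in HFD liver 1 and -0.04 in HFD livers 2 and 3. In each of the 3 classes liver 3 was the lowest of its group, and for the assembly genes it lay below HFD liver 1. With Psmd5, Psmd9 and Psmd10 counted as cap genes by their symbols, the cap median was 0.34 and the assembly median 0.11. Differences between classes were not tested, since genes are not replicates.

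**Figure D3:**
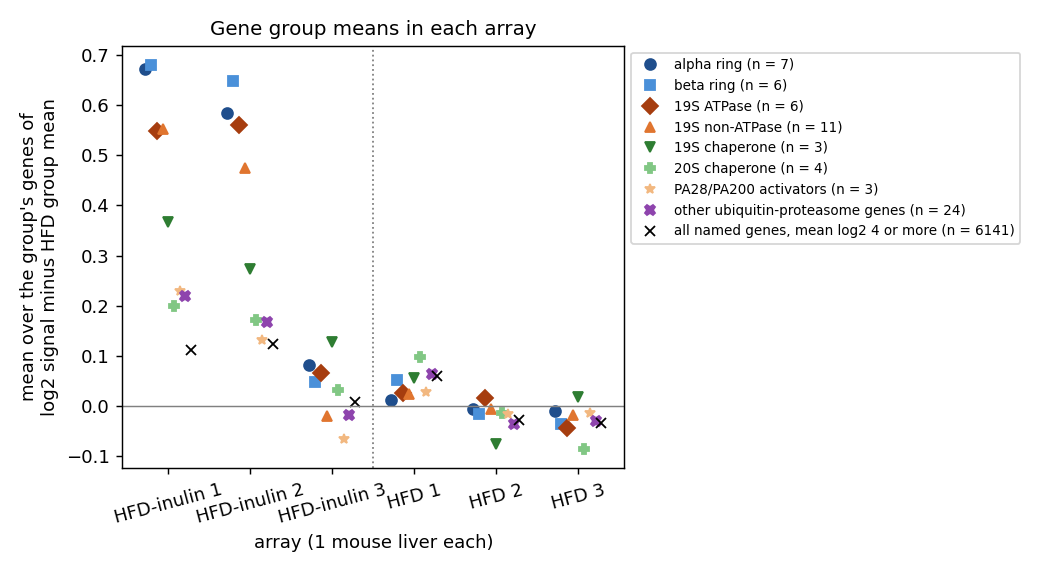
Average log2 signal of the genes in each group, relative to the mean of the 3 HFD arrays, for each of the 6 arrays (1 mouse liver each); crosses are the 6141 named genes with a mean of at least 4. In HFD-inulin 1 and 2 the ring and 19S groups lie between 0.47 and 0.68 and the crosses at 0.11 and 0.12, while in HFD-inulin 3 no plotted group exceeds 0.13; the restricted core genes (0.16 there), Psmf1, Psmc3ip and Psme3ip1 are not plotted.

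Since the arrays also differ along the split, the comparison was made within each side of it. Among low-signal arrays, with HFD-inulin 1 and 2 set against HFD 1, the median over the 46 members was 0.51 and 41 were above zero, where 13991 of 30702 named genes and 3386 of the 6141 with a mean of at least 4 were. Among high-signal arrays, with HFD-inulin 3 set against the other 2, the members' median was 0.05 and 31 were above zero, where 15901 and 3464 of those genes were. The medians over the 30 constitutive genes were 0.56 and 0.06, of which the first follows from how that set was seen to behave in livers 1 and 2. HFD 1, which lies on the low-signal side, averaged 0.03 over the 30 genes relative to the mean of its group. That was the highest HFD value, against -0.003 in HFD 2 and -0.02 in HFD 3. HFD 1 is itself part of that mean. With the split as a block, the median over the 30 genes was 0.31. In that fit limma gave 20 of the 46 members an unadjusted p under 0.05 and 0 an adjusted p under 0.05. Of all 65956 probe sets 3420 had an unadjusted p under 0.05 there. Psmd5 differed by 0.63 and 0.22 on the low-signal and high-signal side, and Psmd10 by 0.29 and 0.22. Psmb10 differed by -0.09 and 0.51. Each side has a group with a single array, and whether the sides differ was not tested.

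**Figure D4:**
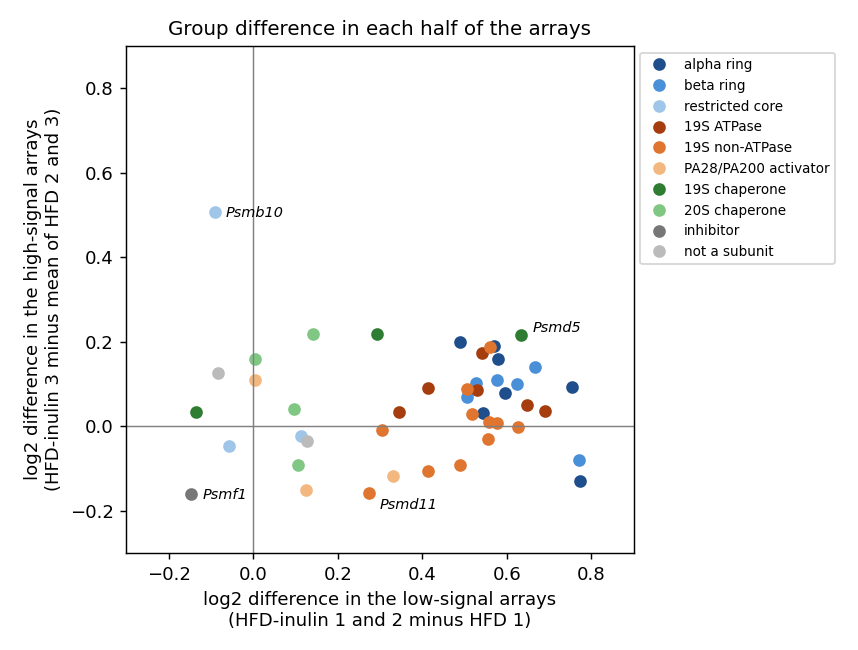
Log2 difference between groups within the low-signal arrays (horizontal, HFD-inulin 1 and 2 minus HFD 1) and within the high-signal arrays (vertical, HFD-inulin 3 minus the mean of HFD 2 and 3) for each of the 46 genes. The ring and 19S genes lie from 0.27 to 0.77 on the horizontal axis and from -0.16 to 0.20 on the vertical axis, and Psmb10 lies apart at -0.09 and 0.51.

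The distance of HFD-inulin liver 3 from livers 1 and 2 also shows in the spread within groups. The standard deviation was larger in HFD-inulin than in HFD in 41 of the 46 members, with medians of 0.28 and 0.06 (n = 3 each). That is 89.1% of the members, against 60.9% of all named genes and 79.2% of those with a mean of at least 4. In the latter the medians were 0.19 and 0.09. A wider spread in HFD-inulin was thus common among genes at that level.

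Markers of hepatocytes and of other liver cells were read in the same arrays. Relative to HFD, hepatocyte markers (6 of 7 listed) averaged -0.32, -0.32 and -0.16 in the HFD-inulin livers, with summed log2 levels of 58.2 to 59.2 against 60.02 to 60.24 in HFD. Neutrophil markers (8 of 8) averaged 0.01, 0.33 and -0.01, with sums of 11.1 to 13.8 against 10.9 to 11.8. Cholangiocyte markers (4 of 5) averaged -0.01, 0.43 and -0.04, with sums of 8.57 to 10.5 against 8.30 to 8.98. Both of these lists were high in HFD-inulin liver 2 alone. The hepatocyte list was farthest from HFD in livers 1 and 2, the livers in which the constitutive proteasome genes were high. In limma 3 of its 6 markers had an unadjusted p under 0.05, as did 2 of 8 Kupffer cell and 1 of 7 endothelial markers. In the other lists 0 did. The shares were 5.65% of named genes and 14.6% of those with a mean of at least 4. Kupffer cell markers (8 of 8) averaged -0.12, -0.20 and -0.07, with sums of 39.9 to 41.0 against 40.7 to 42.0. Lymphocyte (6 of 7), endothelial (7 of 7) and stellate cell (7 of 7) lists averaged between -0.15 and 0.06. Their sums were 8.81 to 9.59 against 9.51 to 10.1, 33.8 to 34.2 against 34.3 to 35.2 and 26.2 to 27.7 against 26.6 to 27.7. The part of these cells in the proteasome values was not tested.

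Of 34 other genes of the ubiquitin-proteasome system, 24 were measured under a single name. Their median difference was 0.11 and 21 of 24 were above zero, against 46.9% of named genes and 64.4% of those with a mean of at least 4. In limma 0 had an adjusted p under 0.05 and 1 an unadjusted p under 0.05, against 5.65% and 14.6%, so that count is no higher than the background. That 1 was Txnl1, which encodes a thioredoxin-like protein bound to the 19S cap, at 5.94, 5.92 and 5.30 in HFD-inulin and 5.44, 5.16 and 5.21 in HFD (difference 0.45, SE 0.18, limma adjusted p = 0.902). Livers 1 and 2 were again the high ones, and liver 3 lay below HFD liver 1. Vcp, the segregase that extracts ubiquitylated proteins, measured 7.44, 7.34 and 6.94 against 6.99, 6.98 and 6.90 (difference 0.29, SE 0.13). Its cofactor Ufd1 measured 4.08, 4.09 and 3.72 against 3.74, 3.75 and 3.71 (difference 0.23, SE 0.11). In both, HFD-inulin liver 3 was within the HFD range. Sem1, a small 19S subunit, measured 3.94, 4.22 and 3.95 against 4.03, 3.63 and 3.70 (difference 0.25, SE 0.13), with only liver 2 above HFD liver 1. Usp14, a deubiquitinase bound to the 19S cap, measured 4.11, 3.75 and 3.52 against 3.61, 3.59 and 3.48 (difference 0.23, SE 0.15), with liver 1 highest. Nfe2l1, the regulator named above, measured 6.66, 6.62 and 6.12 against 6.36, 6.23 and 6.32. Livers 1 and 2 were the highest and liver 3 the lowest of all 6, and its difference was 0.16 (SE 0.15, limma adjusted p = 0.922). Nfe2l2, which encodes the related factor NRF2, differed by -0.09 (SE 0.15). The other 10 were not analysed here.

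Because the constitutive genes were high in the same livers, the members' promoters were searched for TGACNNNGC on either strand, the core of the antioxidant response element that NRF1 and NRF2 bind. RefSeq promoter windows (build GRCm38.p6), running from 250 bases before to 50 bases after the start, covered 38 of the 46 genes with 41 windows. A match stood in 5 windows, or 12.2%, against 12.4% of all 32851 windows. Among the constitutive genes 3 of 26 windows held one, 11.5%. The stretches around the 5 matches, 60 bases each and 5′ to 3′ on the strand of the gene, are shown because they are all the matches among the members: the constitutive genes Psmb6, Psmc6 and Psmd12, the activator gene Psme4 and the chaperone gene Psmd9. Capitals mark the match, which in Psmc6, Psmd12 and Psme4 reads as the reverse complement of the motif.
Psmb6: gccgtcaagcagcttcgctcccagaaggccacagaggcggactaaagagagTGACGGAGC
Psmc6: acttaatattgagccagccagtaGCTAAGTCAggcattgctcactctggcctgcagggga
Psmd12: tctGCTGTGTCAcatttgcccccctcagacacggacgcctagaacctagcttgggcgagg
Psme4: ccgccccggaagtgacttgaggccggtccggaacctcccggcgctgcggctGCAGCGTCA
Psmd9: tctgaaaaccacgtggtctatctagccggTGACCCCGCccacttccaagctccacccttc

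These lie at chr11:70525297-70525356 (Psmb6), chr14:45329574-45329633 (Psmc6), chr11:107479278-107479337 (Psmd12), chr11:30771717-30771776 (Psme4) and chr5:123228130-123228189 (Psmd9), each on the plus strand. The match ends at the last base before the start in Psmb6, spans the start in Psme4, and begins 31 bases before it in Psmd9, 227 in Psmc6 and 247 in Psmd12. The group differences were 0.48, 0.45 and 0.34 for Psmb6, Psmc6 and Psmd12 and 0.18 and -0.04 for Psme4 and Psmd9. The CCAAT box, CCAAT on either strand, was in 36.6% of the members' windows and 37.4% of all windows. The members' windows held a median of 19 CpG dinucleotides, against 7 over all windows, and 59.0% G or C against 52.7%. A match is a description of these letters only, and sequence outside the windows was not searched.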

How the data were processed

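The values are the authors' deposited log2 signals for 65956 probe sets on 6 arrays. The submitters' processing notes name Affymetrix Expression Console 1.0, and the log base follows from the range of the values. Background correction, summarization, genome build and filters: not given in the sources used here.

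Probe sets were named through GEO's platform annotation, with symbols updated through RefSeq (GRCm38.p6), which gave 31258 probe sets 1 gene each. A further 1492 list several genes and were not named. For a gene with several probe sets the one with the highest mean over all arrays was used. The difference HFD-inulin minus HFD was fitted with limma 3.58.1 in R 4.3.3 (lmFit and eBayes, two-sided, no covariate, no filter), and p-values were adjusted by Benjamini-Hochberg over all probe sets. The script was tested on simulated data with the spreads of these probe sets. At an adjusted p under 0.05 limma recovered 6 of 50 planted differences of 0.5 and 28 of 50 planted differences of 1. Differences of the members' size, at most 0.54, may thus be missed with 3 arrays per group. Values relative to HFD are means over genes of log2 signal less the HFD mean. No gene set test was run.

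The members, classes, lists and the rule for named genes were chosen with earlier results of these data known. Under that rule array values are given, in each of core, cap and assembly, for the 4 members with the smallest unadjusted p and those with the highest and lowest mean, for the catalytic subunits, Psmf1 and Psme4, and among other pathway genes for the 6 smallest p, Psmb8, Psmb9, Pomp, Nfe2l1 and a few genes that are not reported here. Values of Psma5, Psmb10, Psmd11 and the probe sets left out were added after they were seen. Alternatives were other variance priors, a mean filter, between-array scaling, weights on arrays, blocks for the replicate number and for the split, each side of the split, each array omitted, other p thresholds, other class borders, and other choices of probe set.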

Additional observations from a re-analysis of the deposited data

How the results depend on the processing

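The 30 constitutive core and 19S genes were joined into 1 set after the values were seen. All were above zero under each alternative fit except within the high-signal arrays (22 of 30). The variance prior, ordinary least squares, the mean filter and the replicate block leave every difference unchanged, so the signs under them were fixed in advance. In all fits with more than 1 array in each group, 0 members had an adjusted p under 0.05. Only the trend and robust prior gave calls among all probe sets, 4 of them and none a member. The count of members at an unadjusted p under 0.05 (23) was 3 with ordinary least squares, 15 after quantile normalization and 1 at a threshold of 0.01. For the core (11) it was 1, 8 and 0 under those settings, in order, and for the cap (10) 0, 5 and 0. For the assembly genes (2) it was 1 at a threshold of 0.01 and 0 with Psmd5, Psmd9 and Psmd10 counted as cap genes. Over all 65956 probe sets the count was 3036 with ordinary least squares and 3081 after quantile normalization. The count over other pathway genes (1) was 0 with the trend and robust prior, ordinary least squares or dim probe sets left out. After quantile normalization or median centring, or at a threshold of 0.01, it was also 0. It was 4 with array weights or at a threshold of 0.1. Over all probe sets 3399 had an unadjusted p under 0.05, and 1873 after dim ones were left out. Within the high-signal arrays the median was 0.046 for the members, 0.10 for the core, 0.020 for the cap and 0.0062 for other pathway genes. Among genes whose array values the naming rule gives, signs turned there for Psmd2 (-0.0013), Psmb6 (-0.079), Psme4 (-0.12), Ufd1 (-0.014), Usp14 (-0.0096), Nfe2l1 (-0.16) and Psmb9 (0.020). They also turned for the members Psma5 (-0.13), Psmd1 (-0.11), Psmd3 (-0.0075), Psmd4 (-0.029), Psmd7 (-0.092), Psmd11 (-0.16), Psme1 (-0.15), Psmg1 (-0.092), Psme3ip1 (-0.034) and Psmd9 (0.033) and for Nfe2l2 (0.12). Psmb9 was 0.00032 after quantile normalization and 0.0024 after median centring. Psmb11 was 0.032 and 0.031 after these, 0.045 with the split as a block and 0.11 within the low-signal arrays. With 1 array left out, the members' median ran from 0.26 to 0.52 and their count from 5 to 34, the core's from 0.32 to 0.60 and 3 to 13, the cap's from 0.24 to 0.51 and 0 to 18, the assembly genes' from 0.08 to 0.19 and 1 to 3, and that of other pathway genes from 0.07 to 0.16 and 0 to 8. The count over all probe sets ran from 2100 to 6525, Psmb11 from -0.070 to 0.10 and Psmb9 from -0.10 to 0.010. The labels do not say whether equal replicate numbers pair the livers. Deviations of same-numbered arrays correlated at 0.26, -0.28 and 0.40. With so few arrays, and the split across them, these values cannot settle whether livers were paired. With the replicate block 25 members, and 2 other pathway genes, had an unadjusted p under 0.05, as did 3349 of all 65956 probe sets. Chosen after seeing the data, counting probe sets that list several genes gave a members' median of 0.35 and leaving out Psmc3ip and Psme3ip1 gave 0.38. The cause of these shifts was not tested.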
